A study of Mus musculus with 22 samples.

Results

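Mouse embryonic stem (mES) cells labelled Hox-/- were compared with wild-type mES cells across all genes. The comparison rests on 4 of the 22 RNA-seq libraries of the series, 2 per genotype, chosen by the genotype and cell type in their labels. The Hox-/- libraries carry the name BADC, and the title of the series speaks of models without any Hox function. Both genotypes were grown alike, in medium with 10% serum and LIF at 100 ng/ml to which CHIR99021 (3 µM, a GSK-3 inhibitor) and PD0325901 (1 µM, a MEK1/2 inhibitor) had been added, and neither received a further treatment. The number of clones per genotype is not in the labels, so an effect of the genotype and one of the line cannot be told apart. The labels also do not say whether replicates were separate cultures, so p-values measure the spread between these samples, which may be technical. Genes of chromosome Y and the 39 Hox genes were left out of the description, which leaves 53448 genes in the table.

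Hox genes encode homeodomain transcription factors that pattern the body axis, and they are held at low levels in pluripotent cells by Polycomb repression. mES cells in LIF with both inhibitors are kept in a naive state, in which CHIR99021 stabilises beta-catenin and PD0325901 blocks signalling through ERK. Levels are given in CPM, a gene's reads scaled to the total of its library, and differences as the log2 fold change of Hox-/- over wild type with its standard error (SE). A gene is called where edgeR's quasi-likelihood test gave an adjusted p under 0.05 over all genes tested.

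The wild-type libraries held 15060936 and 12865786 counts and the Hox-/- libraries 13385620 and 11900882. As a check of the labels, the Hox genes summed to 35.7 and 30.4 CPM in wild type and to 0.448 and 1.34 CPM in Hox-/-. The chromosome Y genes summed to 289 and 258 CPM against 18.5 and 9.58 CPM, and all 5 of them that were tested were called lower. The pluripotency factors summed to between 9223 and 9724 CPM in the 4 libraries. Marker lists of other cell types summed to 21.98 and 22.7 CPM in wild type and 16.1 and 14.2 CPM in Hox-/- for primitive streak and mesoderm (none of 4 tested higher, 2 lower), to 533 and 535 against 488 and 484 CPM for endoderm (none of 10 higher, 4 lower), where Sparc and Lama1 took most, and to 90.2 in both against 93.01 and 85.3 CPM for trophoblast (1 of 6 higher, 3 lower). Fibroblast markers summed to 16.3 and 15.2 against 18.7 and 18.99 CPM (1 of 5 higher, 1 lower), and neural markers to between 118 and 130 CPM (1 of 4 higher, 1 lower). The marker calls moved with single libraries, the lower ones to 1 for primitive streak, 2 for endoderm and 2 for trophoblast without wild-type replicate 1, and the higher trophoblast call was lost without that library, wild-type replicate 2 or Hox-/- replicate 1. The lower fibroblast call was lost without wild-type replicate 2, and the lower neural call without wild-type replicate 1, wild-type replicate 2 or Hox-/- replicate 2. Mesp1, Foxf1, Afp, Ttr, Tpbpa, Prl3d1, Postn, Dcn, Lum, Neurog2, Dcx and Olig2 had no count in any of the 4 libraries, and the part of other cell types in the results was not tested. Mitochondrial RNA took 0.929% to 1.11% of the counts.

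Of 13617 genes tested, 3154 were called (23.2%), with 1692 higher in Hox-/- (12.4%) and 1462 lower (10.7%). The counts of the gene lists below are to be read beside these shares. Most differences were small. The median absolute log2 fold change of the called genes was 0.33, and 307 calls (2.25% of genes tested) were of at least 2-fold, with 148 higher (1.09%) and 159 lower (1.17%). The median over all genes was 0.001, so the scaling left the bulk of genes level. The number of calls moved with the test and with single libraries: DESeq2 called 945 genes, limma on the authors' FPKM values called 365 or 380, and edgeR called 1464 without wild-type replicate 1 and 1676 without wild-type replicate 2. The 2 genotypes' libraries did not overlap in 59.9% of the genes tested, so a lack of overlap is by itself common.

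Among the deepest falls were 3 genes outside the naming rule, which leaves out predicted-gene names such as Gm53 and levels under 5 CPM, and they are named here after their values were seen. Gm53 and Mir196a-1 are noncoding genes between Hoxb13 and Hoxb9 on chromosome 11 (96251105 to 96264868 and 96265164 to 96265265). Gm53 had 419 and 325 counts in wild type and 1 and 0 in Hox-/- (adjusted p 9.66e-23). That was the smallest p outside chromosome Y and the Hox genes. Mir196a-1 had 48 and 45 counts against 0 and 0. Its FPKM given by the authors was 0 in every library, wild type included, so its fall rests on the counts alone. Whether these counts belong to a longer transcript was not tested. Mid1, a ubiquitin ligase gene of chromosome X (169685199 to 170005736), had 52 counts in each wild-type library and 1 and 2 in Hox-/- (adjusted p 7.56e-10), a call lost under limma on log2(FPKM + 0.1) (0.0714).

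Among named genes of at least 5 CPM, the largest differences were found at low to moderate levels. Tspan2, which encodes a tetraspanin membrane protein, was at 3.59 and 3.19 CPM in wild type and at 13.4 and 14.03 CPM in Hox-/- (log2 fold change 2.003, SE 0.161, adjusted p 4.23e-12). Prmt8, an arginine methyltransferase, was at 4.98 and 3.81 CPM against 15.5 and 14.8 CPM (1.77, SE 0.152). Both genes were higher in Hox-/- with no overlap of the libraries. Spry4, a feedback inhibitor of receptor tyrosine kinase signalling, was at 4.38 and 5.99 CPM in wild type and at 0.747 and 0.588 CPM in Hox-/- (-2.92, SE 0.314, adjusted p 4.43e-09). Further genes that fell were the homeobox genes Tlx2 (-2.33) and Nkx6-2 (-2.22), the surface nucleotidase Nt5e (-2.02), the phospholipid-binding Anxa1 (-1.999), the keratin Krt8 (-1.97) and the membrane protein Emp1 (-1.95), each without overlap. The cadherin Cdh3 (1.26) and the secreted hormone Stc2 (1.23) rose.

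**Figure D1:**
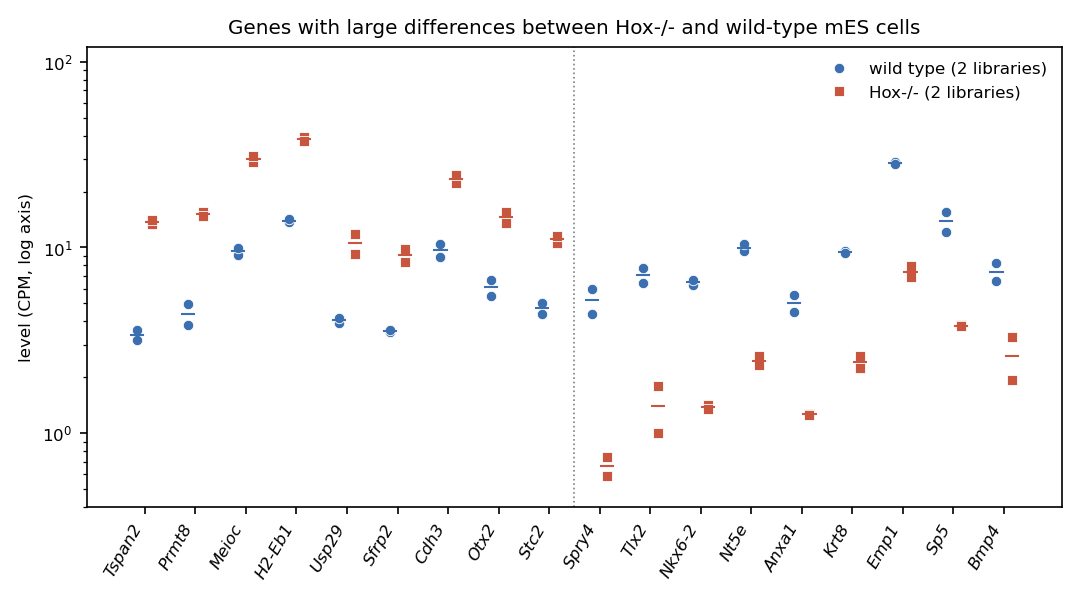
Level of 18 genes in CPM on a log axis, with 1 point per library and a line at the mean of the 2 libraries of each genotype. Genes left of the dotted line were higher in Hox-/- and those right of it lower, and in none of the 18 do the libraries of the 2 genotypes overlap.

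Among genes with small p rather than large change, the fall of Trh stood out by its level. Trh, which encodes the precursor of thyrotropin-releasing hormone, was at 263 and 248 CPM in wild type and at 99.1 and 103 CPM in Hox-/- (-1.34, SE 0.0517, adjusted p 1.26e-21), the smallest p after Gm53. Gpx1, a glutathione peroxidase, fell by 0.93 on the log2 scale, from 416 and 399 CPM to 221 and 208 CPM. Selenoh, which like Gpx1 encodes a selenoprotein, fell by 0.97, the lysosomal mannosidase Manba by 1.15 and the actin-binding Tagln2 by 1.005. In the other direction, Fn1, which encodes fibronectin, rose from 1366 and 1358 CPM to 2102 and 2034 CPM (0.60, SE 0.0357), and Ticrr, a factor of replication initiation, rose by 0.71.

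In the Wnt pathway, 3 of 24 tested genes were higher and 11 were lower, with a median of -0.24 against 0.001 over all genes. Sp5, a transcription factor and direct target of beta-catenin, was at 15.6 and 12.1 CPM in wild type and at 3.81 and 3.78 CPM in Hox-/- (-1.88, SE 0.167, adjusted p 5.57e-11). Axin2, a feedback inhibitor and standard reporter of the pathway, was at 67.5 and 66.1 CPM against 40.9 and 37.8 CPM (-0.76, SE 0.0698). Cdx2, a caudal homeobox factor, was at 2.39 and 2.64 CPM against 0.448 and 0.42 CPM (-2.50, SE 0.4). The wild-type libraries lay above the Hox-/- libraries in all 3 genes. Tcf7l1, which represses the targets of beta-catenin in mES cells, was higher (0.25), and so was Apcdd1 (0.98), an inhibitor of Wnt signalling, which sits in one of the stretches of raised neighbours described below. The counts were 2 higher and 6 lower without wild-type replicate 1, and 2 and 5 under DESeq2.

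The window upstream of Sp5 (chromosome 2, 70474673 to 70474922, plus strand) is shown because Sp5 fell most among members of the list above 5 CPM in wild type. It is RefSeq sequence of build GRCm38.p6, the 250 bases before the annotated start, and the capitals mark CTTTGAT, the core bound by TCF/LEF factors, searched on both strands. This motif was chosen after the values were seen.
Sp5: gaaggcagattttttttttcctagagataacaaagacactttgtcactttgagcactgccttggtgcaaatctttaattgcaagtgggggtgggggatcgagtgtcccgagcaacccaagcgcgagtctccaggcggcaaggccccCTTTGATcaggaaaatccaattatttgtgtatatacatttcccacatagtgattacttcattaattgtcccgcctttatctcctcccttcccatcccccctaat
CTTTGAT was found in 3 of the 33 promoters of the list (9.09%), those of Sp5, Wnt5b and Wnt11, and in 3.73% of all 32851 promoters of the reference table, taken from 250 bases before to 50 after the start. The copy near Sp5 begins 104 bases before the start. CTTTGAT was also found in 2 of 10 promoters of the MHC class II list described below (20%). They are those of H2-Eb1 and H2-Eb2, which rose. In the list of meiotic and germline-restricted genes it was found in 0 of 58.

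Feedback genes of FGF and ERK signalling gave 2 higher and 5 lower calls among 19 tested (36.8%, against 23.2% of all genes tested). Beside Spry4, Spry2, an inhibitor of the same kind, was at 86.9 and 86.4 CPM in wild type and at 56.4 and 57.8 CPM in Hox-/- (-0.60, SE 0.0619), and the ETS factor Etv4 was at 45.5 and 46.5 CPM against 30.8 and 27.8 CPM (-0.65, SE 0.0791). The wild-type libraries were above the Hox-/- libraries in each. Among 15 genes of the BMP pathway, 3 were higher and 3 lower (40% called), with a median of 0.06 and 9 genes above 0. The ligand Bmp4 was at 8.23 and 6.61 CPM against 3.29 and 1.93 CPM (-1.497, SE 0.214), and its target Id3, an inhibitor of basic helix-loop-helix factors, at 12.2 and 10.9 CPM against 4.48 and 5.46 CPM (-1.23, SE 0.158). Both were lower without overlap. In the Nodal and Activin pathway 4 of 16 were higher and 3 lower (43.8% called). Among the higher ones were the SMAD co-repressor Skil (0.62) and the Nodal inhibitor Lefty1 (0.56). The receptor genes Notch3 (0.66) and Ptch1 (0.48), of the Notch and Hedgehog pathways, rose, and Lats2, a kinase of the Hippo pathway, fell by 1.37. Without wild-type replicate 1, the counts of higher and lower genes were 0 and 4 for FGF and ERK, 1 and 3 for BMP and 2 and 1 for Nodal and Activin. Without wild-type replicate 2 they were 2 and 4, 1 and 2, and 3 and 0, and FGF and ERK gave 1 and 5 without Hox-/- replicate 1.

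The core of the pluripotency network was close between genotypes. Pou5f1, its central factor, was at 1308 and 1301 CPM in wild type and at 1254 and 1216 CPM in Hox-/- (-0.08, SE 0.0367, adjusted p 0.105; -0.11 and 0.0138 without Hox-/- replicate 1). Nanog was at 920.8 and 924 CPM against 900.1 and 910.5 CPM (-0.03, SE 0.0377, adjusted p 0.618). Of 22 core and naive factors tested, 3 were called higher and 8 lower, with a median of -0.09. Klf4, a target of LIF signalling, fell by 0.36 and Tfcp2l1, a further naive factor, fell by 0.18, while Dppa3, which protects DNA methylation marks in the early embryo, rose (0.85, SE 0.127). The counts were 1 and 4 without wild-type replicate 1, 1 and 6 without wild-type replicate 2 and 2 and 11 without Hox-/- replicate 1. In the LIF and STAT3 list, 1 of 16 was higher and 6 were lower (3 lower without either wild-type library, and 2 higher and 5 lower without Hox-/- replicate 2), including the homeobox gene Gbx2, at 23.5 and 22.6 CPM against 9.64 and 8.15 CPM (-1.37, SE 0.118).

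Genes of the formative and primed epiblast, the states that follow naive pluripotency, gave 4 higher calls and 1 lower among 12 tested (3 and 3 without Hox-/- replicate 1, 3 and 2 without wild-type replicate 2). The median of this list was -0.09, and 5 of the 12 genes lay above 0. Otx2, a homeobox factor of the formative state, was at 5.51 and 6.68 CPM in wild type and at 13.6 and 15.5 CPM in Hox-/- (1.25, SE 0.144, adjusted p 1.68e-08). Sfrp2, a secreted modulator of Wnt signalling, was at 3.52 and 3.58 CPM against 9.86 and 8.40 CPM (1.37, SE 0.178). The Hox-/- libraries were above the wild-type libraries in both. The de novo DNA methyltransferases moved in opposite directions: Dnmt3a rose by 0.71 (SE 0.0665), Dnmt3b changed by -0.25 (SE 0.0508), and their cofactor Dnmt3l by -0.68 (SE 0.0903). Genes of the rare two-cell-like state within mES cultures were low in both genotypes. The 4 that could be tested, of 21 in the table, were all called lower. At such levels a gene can pass the filter on low counts through 1 genotype alone. The share called is therefore partly set by the filter. With no such filter, 4 of 21 were called lower and none higher, with a median of -1.73. Zscan4a, the gene of this list with the smallest p, had 33 and 23 counts in wild type and 5 and 4 in Hox-/- (-2.46, SE 0.444). Its family has near-identical copies, so its counts are uncertain, and without wild-type replicate 2 the calls of this list fell to 2.

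Germline genes are silenced by DNA methylation and by E-box and E2F factors in most cells and are partly expressed in mES cells. Of 60 meiotic and germline-restricted genes in the table, 37 could be tested, 13 were higher and 3 lower, with a median of 0.25. Meioc, which sustains meiotic prophase, was at 9.16 and 9.95 CPM in wild type and at 28.8 and 30.9 CPM in Hox-/- (1.64, SE 0.108, adjusted p 1.86e-14). Stag3, a meiotic cohesin subunit, was at 26.4 and 25.7 CPM against 37.4 and 38.1 CPM (0.53, SE 0.0823), and Sycp3, a protein of the synaptonemal complex, at 2.39 and 2.41 CPM against 3.66 and 4.62 CPM (0.77, SE 0.238, adjusted p 0.0158). All 3 lay higher in both Hox-/- libraries. The germ cell factors Sohlh2 (0.50) and Tex14 (0.48) rose, and Rpl10l, a testis-type ribosomal protein gene, fell by 0.39. The call of Sycp3 was lost under DESeq2 (adjusted p 0.317) and without any of wild-type replicates 1 and 2 and Hox-/- replicate 2 (0.114, 0.0842 and 0.145), and the list gave 6 higher and 1 lower call without wild-type replicate 1, 7 and 3 without wild-type replicate 2, 8 and 3 without Hox-/- replicate 2 and 4 and 1 under DESeq2.

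The windows upstream of a RefSeq start of Stag3 (chromosome 5, 138280259 to 138280508) and Sycp3 (chromosome 10, 88459337 to 88459586) are shown for the E-box CACGTG. Both are on the plus strand of GRCm38.p6, are 250 bases long and are the first listed of their gene with the motif. The E-box is in capitals and reads the same on both strands.
Stag3: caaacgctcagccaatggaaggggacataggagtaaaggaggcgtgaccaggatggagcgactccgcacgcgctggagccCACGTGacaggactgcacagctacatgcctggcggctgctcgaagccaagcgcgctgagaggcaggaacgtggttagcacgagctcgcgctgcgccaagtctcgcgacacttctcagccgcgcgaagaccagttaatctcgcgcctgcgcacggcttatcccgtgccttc
Sycp3: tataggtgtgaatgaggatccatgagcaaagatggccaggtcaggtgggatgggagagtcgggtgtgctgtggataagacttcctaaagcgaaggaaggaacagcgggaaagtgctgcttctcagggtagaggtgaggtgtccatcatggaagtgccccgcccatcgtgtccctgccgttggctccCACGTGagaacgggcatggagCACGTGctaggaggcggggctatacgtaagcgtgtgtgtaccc
Stag3 has 1 copy, beginning 170 bases before its RefSeq start, and Sycp3 has 2, at 64 and 43 bases before its own. The gene positions deposited by the authors begin Stag3 at 138280240, so its whole window, with the E-box, lies after that start. CACGTG was found in 19 of the 58 promoters of the list (32.8%) and in 7.15% of all promoters. The E2F-type sequence GGCGGGA, on either strand, was found in 14 (24.1%) and in 11.3%. Among the promoters of list members called higher, 5 of 11 held CACGTG, and among those called lower 2 of 4.

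Genes of primordial germ cells, some of which are shared with the pluripotency list, gave 6 higher calls and no lower one among 13 tested, and 5 and 2 without Hox-/- replicate 1. Prdm1, a repressor that specifies these cells, was at 14.01 and 13.4 CPM in wild type and at 21.1 and 25.04 CPM in Hox-/- (0.74, SE 0.109), and Ifitm1 rose by 0.43. On the X chromosome, Rhox5, a homeobox gene of the reproductive cluster, fell by 1.40 (SE 0.202), from 7.30 and 6.68 CPM to 2.62 and 2.69 CPM. Xlr3a, of a lymphocyte-regulated family with near-identical copies, rose by 1.12 (SE 0.109), and the counts of its family are uncertain. Ddx3x, an RNA helicase gene with a partner on chromosome Y, was at 1048 and 1026 CPM in wild type and at 1496 and 1600 CPM in Hox-/- (0.57, SE 0.0382, adjusted p 2.19e-14). It was the largest of 3 higher calls among 8 tested X-linked partners of Y genes (1 without either wild-type library), and this difference stands beside the loss of chromosome Y counts given above, whose part in it was not tested.

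MHC class II genes, which present peptides in immune cells and are barely expressed in mES cells, gave 4 higher calls and no lower one among 7 tested, with a median of 1.04 (2 higher without wild-type replicate 2, and 1 under DESeq2). H2-Eb1 was at 13.7 and 14.2 CPM in wild type and at 39.5 and 37.2 CPM in Hox-/- (1.46, SE 0.0941, adjusted p 1.08e-14). Its neighbour H2-Eb2 had 3 and 2 counts in wild type and 18 and 12 in Hox-/- (adjusted p 0.000791). The wild-type level of H2-Eb2 is thus at or under the floor of 3 counts per library, and no fold is given. H2-Eb2 passed the filter on low counts through its Hox-/- libraries alone, so the median of the tested genes is partly set by the filter. With no such filter the median of the list was 0.53 over 11 genes. It was 0.82 over 6 genes without those in the stretches of raised neighbours described below. H2-Ab1 (1.157, SE 0.341) and Cd74 (1.04, SE 0.323), the invariant chain, were at 2.76 CPM or lower in every library. DESeq2 called neither (adjusted p 0.289 and 0.322). The call of H2-Ab1 was lost without wild-type replicate 2 or Hox-/- replicate 1 (0.147 and 0.216), and that of Cd74, which sits in one of the stretches of raised neighbours described below, without wild-type replicates 1 or 2 or Hox-/- replicate 2 (0.106, 0.129 and 0.114). Ciita, the master activator of the class, was at 3.19 and 2.95 CPM against 4.18 and 4.45 CPM and was not called (0.48, SE 0.219, adjusted p 0.11).

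The windows upstream of H2-Eb1 (chromosome 17, 34305617 to 34305866) and H2-Eb2 (chromosome 17, 34325425 to 34325674), on the plus strand and of the same build and length, are shown because the 2 neighbours had the smallest p in their list. The capitals mark CTGATTGG, the Y box of class II promoters, searched on both strands and chosen after the values were seen.
H2-Eb1: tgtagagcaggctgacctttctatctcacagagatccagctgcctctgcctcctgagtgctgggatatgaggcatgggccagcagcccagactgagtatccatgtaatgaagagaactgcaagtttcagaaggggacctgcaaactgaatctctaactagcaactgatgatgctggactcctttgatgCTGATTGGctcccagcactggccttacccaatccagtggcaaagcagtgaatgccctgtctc
H2-Eb2: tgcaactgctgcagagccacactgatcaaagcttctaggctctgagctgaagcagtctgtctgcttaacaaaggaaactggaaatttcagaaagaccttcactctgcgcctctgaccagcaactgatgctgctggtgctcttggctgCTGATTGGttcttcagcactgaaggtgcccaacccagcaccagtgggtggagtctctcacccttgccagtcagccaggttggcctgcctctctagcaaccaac
The motif begins 62 bases before the start of H2-Eb1 and 103 bases before that of H2-Eb2. It was found in 4 of 10 promoters of the list and in 4.1% of all promoters.

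MHC class I and interferon-response genes were called at 21.4% and 25.9%, near the 23.2% of all genes tested. Of 14 class I and peptide-loading genes, none was higher and 3 were lower (1 without wild-type replicate 1). H2-D1, a classical class I chain, was at 8.37 and 8.63 CPM in wild type and at 4.86 and 3.87 CPM in Hox-/- (-0.95, SE 0.173). Of 27 interferon-response genes, 2 were higher and 5 lower (4 and 5 without Hox-/- replicate 1). Ddx58, the RNA sensor RIG-I, was at 28.1 and 30.8 CPM against 13.5 and 14.5 CPM (-1.07, SE 0.101), Xaf1 fell by 0.53 and the tethering factor Bst2 by 0.97. In each of these the wild-type libraries lay above the Hox-/- libraries.

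Imprinted genes, which are expressed from 1 parental allele, gave 14 higher and 8 lower calls among 50 tested, with a median of -0.005. At the Dlk1 to Dio3 locus on chromosome 12, the noncoding RNA Rian (109603808 to 109661716) was at 311 and 310 CPM in wild type and at 534 and 565 CPM in Hox-/- (0.82, SE 0.043, adjusted p 2.48e-17). Meg3, transcribed just before it (109541001 to 109571726), was at 200 and 179 CPM against 315 and 324 CPM (0.75, SE 0.0496). Both noncoding genes were higher in both Hox-/- libraries. Dio3, at the other end of the locus and expressed from the opposite allele, was at 4.98 and 6.53 CPM against 3.14 and 2.52 CPM (-1.004, SE 0.217), a call that DESeq2 did not make (adjusted p 0.0764). Elsewhere, Usp29 (1.37), the growth suppressor Plagl1 (0.58) and the receptor Igf2r (0.55) rose, and the retroviral-derived Peg10 fell by 0.83. Without wild-type replicate 1 the list gave 10 higher and 3 lower calls, without wild-type replicate 2 it gave 9 and 5, without Hox-/- replicate 2 it gave 11 and 5, and DESeq2 gave 8 and 1.

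Genes of sugar and lipid metabolism were called higher more often than lower, by small amounts. Of 24 glycolysis enzymes and glucose or lactate carriers, 15 were higher and none lower, with a median of 0.15. Pgk1, phosphoglycerate kinase, was at 396.5 and 412 CPM in wild type and at 508 and 503 CPM in Hox-/- (0.32, SE 0.0418), and Ldhb, a lactate dehydrogenase subunit, at 425 and 416 CPM against 542 and 541 CPM (0.36, SE 0.0412). The Hox-/- libraries were above the wild-type libraries in both, and Pfkm (0.36) and the lactate carrier Slc16a3 (0.43) rose too. Of 17 hypoxia-response genes, 10 were higher and 1 lower, with a median of 0.27. The prolyl hydroxylase Egln3, a standard target of HIF, rose from 5.11 and 4.97 CPM to 11.9 and 10.8 CPM (1.164, SE 0.154), the repressor Bhlhe40 by 0.90, the mitophagy receptor Bnip3 by 0.72 and the collagen hydroxylase P4ha1 by 0.48. The glycolysis count was 7 without either wild-type library and 10 under DESeq2, and the hypoxia counts were 6 and 1 under DESeq2 and 8 and 0 without wild-type replicate 2.

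Fatty acid synthesis gave 9 higher and 1 lower calls among 14 tested, including the desaturase Fads2 (0.44, SE 0.0554), acetyl-CoA synthetase Acss2 (0.54, SE 0.0881) and the desaturase Scd1 (0.25, SE 0.0443). Sterol synthesis and uptake gave 7 higher and 1 lower among 25, including Fdps (0.27) and Cyp51 (0.28). Among 22 targets of ATF4, the factor of the amino acid stress response, 9 were higher and 3 lower. Chac1, a glutathione-degrading enzyme, was at 4.52 and 4.28 CPM in wild type and at 9.04 and 9.33 CPM in Hox-/- (1.05, SE 0.166), with no overlap of the libraries. Of the amino acid carriers, Slc1a4 rose by 1.01 and Slc38a2 by 0.48. Without wild-type replicate 1 the higher and lower calls were 3 and 0 in fatty acid synthesis, 3 and 0 in sterol synthesis and 5 and 1 among ATF4 targets. They were 5 and 0, 4 and 0, and 5 and 2 without wild-type replicate 2, and 7 and 2, 10 and 2, and 7 and 4 without Hox-/- replicate 1.

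Ribosomal and p53 genes were called lower more often than higher. Of 77 cytosolic ribosomal protein genes, 32 were lower and 1 was higher, with a median of -0.08. Rps21 was at 478 and 467 CPM in wild type and at 390 and 343 CPM in Hox-/- (-0.37, SE 0.0474), lower in both Hox-/- libraries. The higher gene was Rps14, at 902 and 869 CPM against 1394 and 1348 CPM (0.63, SE 0.038), which lies in the chromosome 18 run. The number lower hung on single libraries, at 6 without wild-type replicate 1, 12 without wild-type replicate 2 and 43 without Hox-/- replicate 1, and was 15 under DESeq2; without Hox-/- replicate 2, 4 were higher and 25 lower. Of 77 mitochondrial ribosomal protein genes, 2 were higher and 18 lower (1 higher and 6 lower without wild-type replicate 1, 0 and 7 without wild-type replicate 2, 1 and 21 without Hox-/- replicate 1, and 0 and 2 under DESeq2), with Mrps34 falling by 0.50. These genes have processed copies elsewhere in the genome, so reads may have been split among copies.

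Among 27 targets of p53, 11 were lower and 4 higher. Perp, a desmosome-associated effector, was at 16.3 and 17.3 CPM in wild type and at 6.80 and 7.39 CPM in Hox-/- (-1.25, SE 0.131), with Btg2 (-0.55), the kinase Plk2 (-0.56) and the adenylate kinase Ak1 (-0.47) also lower. Ei24, which was higher (0.66), lies in the run on chromosome 9. In the fit without wild-type replicate 1, 1 target was higher and 9 were lower, and without wild-type replicate 2, 2 and 10. Mitochondrially encoded genes gave 5 higher calls among 8 tested (3 without wild-type replicate 1), with mt-Nd2, a subunit of complex I, rising by 0.32, whereas the nuclear subunits of oxidative phosphorylation gave 3 higher and 11 lower among 75. Those nuclear counts were 1 and 3 without wild-type replicate 1, 1 and 6 without wild-type replicate 2, 3 and 19 without Hox-/- replicate 1, 4 and 7 without Hox-/- replicate 2 and 0 and 2 under DESeq2. At 18.7% called, the nuclear subunits were under the 23.2% of all genes tested. The chromatin-binding Hmga2, a target of let-7, fell from 62.9 and 64.7 CPM to 31.2 and 31.1 CPM (-1.03, SE 0.0725), and the linker histone H1f2 was lower too (-1.499). Col4a1, a basement membrane collagen, fell by 0.97.

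**Figure D2:**
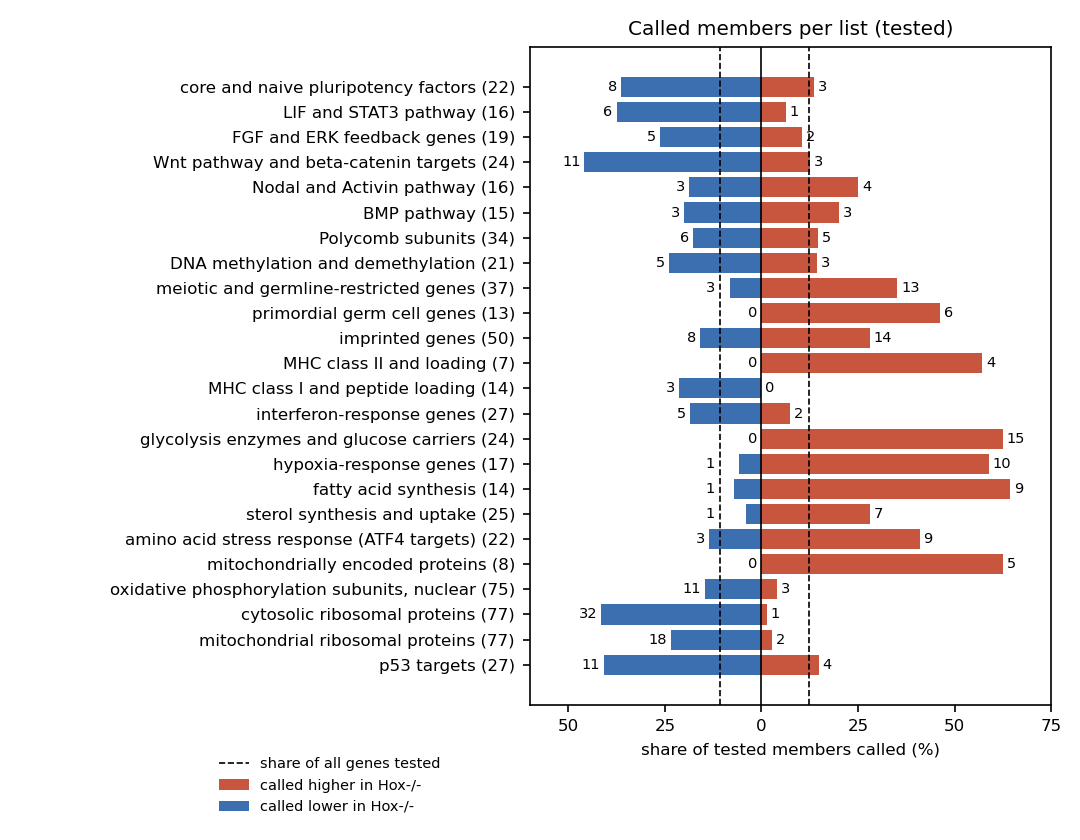
Share of the tested members of 24 gene lists called higher (to the right) or lower (to the left) in Hox-/-, with the number called at the end of each bar and the number tested in brackets. The dashed lines are the shares of all genes tested, 12.4% higher and 10.7% lower. Glycolysis (15 of 24 higher, median log2 fold change 0.15), cytosolic ribosomal proteins (32 of 77 lower, -0.08) and the Wnt pathway (11 of 24 lower, -0.24) reach past them. Those shares cover genes at all levels, and at high levels, as in the first 2 of these lists, smaller differences are called. The counts of all 3 lists moved when 1 library was left out.

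TALE homeodomain proteins bind DNA together with Hox proteins, and Polycomb complexes keep Hox genes silent. Of 8 TALE genes tested, 3 were higher and 1 lower, with no lower call without wild-type replicate 1, wild-type replicate 2 or Hox-/- replicate 2. Meis2 was at 18.3 and 21.2 CPM in wild type and at 39.7 and 44.5 CPM in Hox-/- (1.09, SE 0.0906, adjusted p 9.12e-12), higher in both Hox-/- libraries. Pknox2 rose by 0.56, lies in the run on chromosome 9 and was not called by DESeq2 (adjusted p 0.0608). Of 34 Polycomb subunits, 5 were higher and 6 lower (1 and 3 without wild-type replicate 1, 1 and 5 without wild-type replicate 2, and 3 and 7 without Hox-/- replicate 2). Epop, an accessory subunit of the second Polycomb complex, fell by 0.33, from 238.6 and 232 CPM to 201 and 173 CPM. Of 18 neighbours of the Hox clusters, 4 were higher and none lower. That is 22.2% called, near the 23.2% of all genes tested. DESeq2 called none of them, and the calls also moved when 1 library was left out.

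Called genes were not spread evenly along the chromosomes. Chromosome 18 had the largest share called, 29.6% of 348 genes tested, with 19.8% higher and 9.77% lower, and chromosome 13 the smallest, 16.9%. Windows of 15 neighbouring tested genes were scanned for a median log2 fold change of at least 0.5, and 71 of 13326 windows reached it. They joined into 5 runs, which these values chose, so the values in mES cells are a description. The runs lay on chromosome 1 (172261641 to 180690694, 33 genes, median 0.54), chromosome 2 (52691664 to 65567627, 27 genes, 0.45), chromosome 3 (69716986 to 79628863, 15 genes, 0.50), chromosome 9 (31149557 to 40531383, 38 genes, 0.57) and chromosome 18 (57354741 to 63708801, 30 genes, 0.51). No window lay at -0.5 or below, the lowest being -0.39 on chromosome X.

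The medians of the runs amount to 1.36-fold to 1.48-fold. The flanking 30 genes of each had medians between -0.04 and 0.06. On chromosome 9, 24 of 38 genes were called higher and none lower, among them the checkpoint kinase Chek1 (0.60), the Hedgehog co-receptor Cdon (0.99) and Srpr (0.74), a receptor of the signal recognition particle. Acvr1 (0.96) and the receptor Ly75 (0.78) lie in the run on chromosome 2, Fnip2 (0.88) in that on chromosome 3 and Ndst1 (0.81) in that on chromosome 18. Tagln2, which fell, lies in the run on chromosome 1, where 4 genes were lower. In libraries that did not choose them, the same genes had median log2 ratios of 0.36 to 0.51 in endoderm cultures of these genotypes, against -0.01 over all genes. Gastruloids of these genotypes treated with Activin A had 2 libraries per genotype and time. Their medians were 0.29 to 0.53 at 96 h and 0.35 to 0.50 at 120 h, against -0.02 and -0.09 over all genes. DNA copy number was not measured. The runs held 84 of the 1692 higher calls (4.96%), and 3064 calls were left without them.

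**Figure D3:**
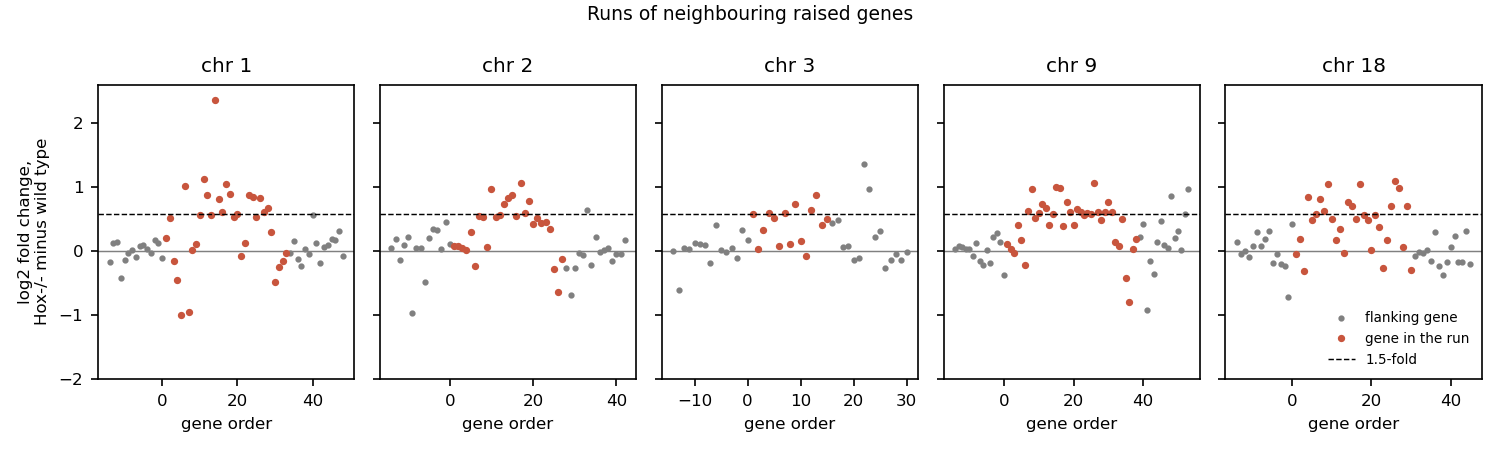
Log2 fold change of Hox-/- over wild type in mES cells for neighbouring tested genes, in gene order, in the 5 runs (coloured) and the 15 genes on either side (grey); the dashed line is 1.5-fold. Most points inside the runs lie above 0, many of them near the dashed line, and the flanking points lie around 0.

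The endoderm cultures made from cells of both genotypes, 3 libraries per genotype, were set beside the mES cells to see where the difference depended on the culture. They were differentiated for 120 h with 100 ng/ml Activin A and 3 µM CHIR99021. In 1 joint edgeR fit the genotype difference itself differed between the cultures for 3912 of 16206 genes tested (24.1%). Of the 3154 genes called in mES cells, 1462 were among them (46.4%), 766 of those higher in Hox-/- mES cells and 696 of those lower. In 1144 of the 1462 the sign of the log2 ratio of mean CPM in endoderm was opposite, and in 318 it was the same. The 1462 genes were chosen by their mES difference, which is also part of the test between cultures. That choice favours small or opposite ratios in endoderm and a share above 24.1%. How common a change of side is among all genes was not tested.

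Otx2, higher in Hox-/- mES cells, was lower in Hox-/- endoderm, at 14.6 ± 1.11 CPM against 41.8 ± 4.17 (SD, n = 3 each), and the difference between the cultures was 2.74 on the log2 scale (SE 0.174, adjusted p 8.44e-10). Igf2r and Stag3 also changed sides, with 130 ± 4.4 against 251 ± 2.52 CPM and 28.1 ± 1.58 against 48.2 ± 2.48 CPM in endoderm (differences 1.47 and 1.27). Axin2 went the opposite way, at 260 ± 7.79 CPM in Hox-/- endoderm and 143 ± 9.21 in wild type (difference -1.66, SE 0.091), as did Cdx2 (207 ± 10.7 against 98.8 ± 8, difference -3.61). Bmp4 had means of 222 and 151 CPM (difference -2.09). Trh was lower in both cultures and by more in endoderm, where it was at 30.8 ± 1.32 against 256 ± 9.4 CPM (difference 1.68, SE 0.0811). Spry4 was at 44.9 ± 1.37 CPM in Hox-/- endoderm and 49.7 ± 3.07 in wild type (difference -2.81, SE 0.29). For Meioc (0.33, SE 0.199, adjusted p 0.245), Rian (-0.08, SE 0.0757, adjusted p 0.51) and Ddx3x (-0.16, SE 0.067, adjusted p 0.0862) the test found no difference between the cultures.

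**Figure D4:**
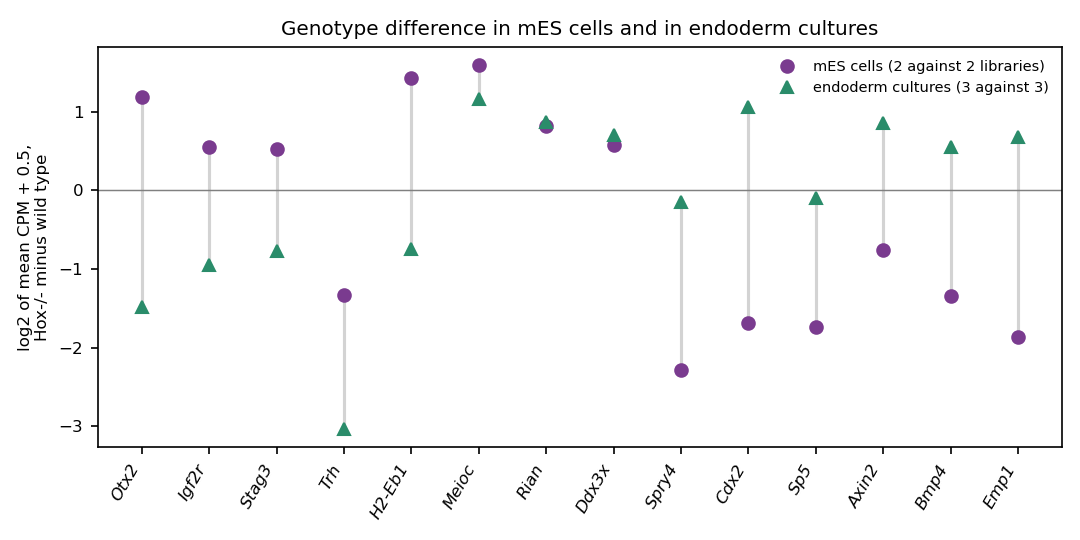
Log2 ratio of mean CPM (with 0.5 added), Hox-/- over wild type, for 14 genes in mES cells (circles, means of 2 libraries per genotype) and in endoderm cultures (triangles, means of 3). Otx2, Igf2r, Stag3 and H2-Eb1 lie above 0 in mES cells and below it in endoderm, Cdx2, Axin2, Bmp4 and Emp1 lie the other way, and Trh, Meioc, Rian and Ddx3x keep their side.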

How the data were processed

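Per the labels' protocols, poly(A) RNA was made into libraries with a stranded kit. The submitters' processing notes name cutadapt 1.16, STAR 2.7.7a, Cufflinks 2.2.1 and build mm10, with no roles, and do not say whether counting used strand. The counts deposited by the authors are whole numbers per Ensembl gene, not normalized; the FPKM deposited by the authors, with gene symbols and positions, served in an alternative. Exons of 34 of the 116 genes named here overlap another gene, small RNAs aside, in GENCODE M21, so their counts may hold that gene's reads: Acss2, Axin2, Bhlhe40, Bmp4, Bnip3, Ciita, Col4a1, Cyp51, Dnmt3a, Dnmt3l, Ei24, Fdps, Fn1, Gbx2, Hmga2, Krt8, Lats2, Ly75, Meg3, Mid1, Mrps34, Nkx6-2, Notch3, Otx2, Pfkm, Pou5f1, Prmt8, Sfrp2, Srpr, Sycp3, Tcf7l1, Ticrr, Tspan2 and Usp29.

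Counts were fitted with edgeR 4.0.16 in R 4.3.3 (filterByExpr, TMM, quasi-likelihood test, Benjamini-Hochberg adjustment); DESeq2 1.42.0 and limma 3.58.1 were alternatives. CPM used total counts, and 3 counts per library are the floor; 3 counts are 0.199 to 0.252 CPM, for counting error only. The replicate numbers did not pair the samples (correlation of deviations 0.00267). The gene lists (56) and the members were chosen with earlier results of these data known. Named genes were the 14 largest changes and the 6 smallest p per direction among calls of at least 5 CPM without overlap (predicted-gene names such as Gm53 left out), up to 4 called members per list and direction, the 3 members at the highest level, and the 5 largest differences between cultures per direction; not all are printed, and Nanog, Sycp3, Cdon, Chek1, Acvr1, Fnip2, Ndst1, Gm53, Mir196a-1 and Mid1 lie outside this rule and were chosen after their values were seen. On simulated counts for the comparison of genotypes (13631 genes), edgeR recovered 82% of genes changed 1.5-fold and 96% of those changed 2-fold. Of its calls, 5.5% were false. The changed genes, 50 per fold, were drawn from genes that were not low in counts, with the spread that edgeR had fitted. These rates therefore do not cover genes at low counts or a spread that departs from that fit.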

Additional observations from a re-analysis of the deposited data

Results flagged for a closer look

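The genotype difference in mES cells differed from that in endoderm cultures for 3912 genes by the test of the difference itself. Among them were 78 of the 116 genes named here, and the naming used both the mES difference and this one. Values are given for Otx2 (2.74), Trh (1.68), Igf2r (1.47), Stag3 (1.27), H2-Eb1 (2.48), Axin2 (-1.66), Cdx2 (-3.61), Bmp4 (-2.09), Spry4 (-2.81) and Emp1 (-2.71), each value being the log2 fold change in mES cells minus that in endoderm. H2-Eb1 was at 1.57 ± 0.276 CPM in wild-type endoderm and 0.737 ± 0.379 in Hox-/- (SD, n = 3 each), near the floor, so its difference rests on few counts there. Emp1 was at 5.12 ± 0.0517 CPM in wild-type endoderm and 8.52 ± 0.311 in Hox-/-. Limch1, which encodes an actin-binding protein, was lower in Hox-/- mES cells, at 3.44 and 4.37 CPM against 10.7 and 10.8 CPM in wild type (-1.47, SE 0.169), and higher in Hox-/- endoderm, at 195 ± 7.83 against 89.3 ± 5.58 CPM (difference -2.63). Nlrp4a, a gene of the oocyte-expressed Nlrp4 family, was at 10.9 and 13.95 CPM in Hox-/- mES cells against 7.77 CPM in both wild-type libraries (0.67, SE 0.143; not called by DESeq2, adjusted p 0.076) and at 0.239 ± 0.0682 and 0.0205 ± 0.0355 CPM in wild-type and Hox-/- endoderm, at or under the floor, so the fitted difference of 3.75 depends on the prior count. Mid1, at or under the floor in both Hox-/- mES libraries, was at 6.41 ± 0.722 CPM in Hox-/- endoderm against 6.84 ± 1.08 in wild type, and its fitted difference was -4.81, which likewise depends on the prior count.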

How the results depend on the processing

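The count of calls, 3154, was 945 by DESeq2, 380 by limma on log2(FPKM + 1), 365 by limma on log2(FPKM + 0.1), and 645 when tested against 1.2-fold, an alternative added after seeing the data. The count of at least 2-fold, 307, was 128, 65 and 89 under the same 3 tests, 211 against 1.2-fold and 194 with at least 10 counts in every library. Leaving out 1 library gave 1464 to 3358 calls and 193 to 300 of at least 2-fold; for the difference between cultures it gave 2718 to 4031. With the replicate block, 3779 genes were called, 317 of them at least 2-fold, and 3817 for the difference between cultures; the numbers do not pair the samples. Counts under the remaining alternatives stayed within 1.5 times, and 48.5% to 56.2% of calls were higher in Hox-/-. Of the 112 called genes named here, DESeq2 kept 104 of 110 and limma on log2(FPKM + 1) kept 69 of 107, and none changed sign. Of the 321 called genes that the naming rule chose, DESeq2 kept 182 of 312. The limma test on log2(FPKM + 1) kept 88 of 297 of them, with 1 change of sign. Calls of both sets were also lost without 1 library, and a larger part of those of the rule. The printed genes thus kept their calls more often than the rule's genes as a whole. With 2 libraries per genotype, differences of small size rest on the shared estimate of spread.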

Other observations

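The counts below stand beside the 23.2% of all genes tested that were called, 12.4% higher and 10.7% lower. Among 364 zinc finger genes of the Zfp name, 37 were higher and 25 lower (17% called). Of 225 solute carriers, 39 and 21 were (26.7%), and the medians of the 2 families were 0.002 and 0.03. Under 23.2% were also Rab genes (20.7%), Notch (18.2%), retinoic acid (18.2%), DNA replication (16.7%) and protocadherins (6.67%). Rab genes (5 higher and 7 lower of 58), integrins (5 and 1 of 19), collagens (1 and 5 of 22), laminins (1 and 2 of 8), tetraspanins (3 and 3 of 18) and protocadherins (0 and 1 of 15) are given by their counts alone. Cell cycle genes gave 1 higher and 3 lower of 24 for DNA replication and 3 and 3 of 21 for mitosis. Chaperones of the unfolded protein response gave 2 and 5 of 16, antioxidant genes 5 and 5 of 16, serine and folate metabolism 3 and 6 of 19, and histone genes 1 and 6 of 11. Signalling lists not broken down above gave 2 higher and none lower of 11 for Notch, 2 and none of 8 for Hedgehog, 5 and 3 of 14 for Hippo and 1 and 1 of 11 for retinoic acid. The remaining lists gave 3 and 5 of 21 for DNA methylation, none and 1 of 3 for the Rhox cluster, 4 and 1 of 15 for the Xlr and Mage families, 2 and 3 of 10 for the Lin28 axis and 4 and 3 of 18 for epithelial adhesion. Many of these counts moved when 1 library was left out, and are given as higher and lower where they moved by more than 1.5 times. In the fit without wild-type replicate 1 they were 18 and 9 for Zfp genes, 20 and 11 for solute carriers, 3 and 2 for Rab genes, 2 and 1 for integrins, 1 and 2 for collagens, 3 and 1 for tetraspanins, 0 and 1 for DNA replication, 0 and 2 for mitosis, 0 and 1 for the unfolded protein response and 4 and 3 for antioxidant genes. The same fit gave 0 and 2 for serine and folate metabolism, 0 and 3 for histones, 1 and 0 for Notch and for Hedgehog, 1 and 1 for Hippo, 0 and 1 for retinoic acid, 2 and 3 for DNA methylation, 0 and 2 for Rhox, 3 and 0 for Xlr and Mage, 0 and 2 for the Lin28 axis and 1 and 3 for epithelial adhesion.

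In the fit without wild-type replicate 2 they were 23 and 9 for Zfp genes, 4 and 3 for Rab genes, 3 and 2 for integrins, 0 and 4 for collagens, 2 and 0 for tetraspanins, 1 and 1 for DNA replication, 1 and 2 for mitosis, 0 and 3 for the unfolded protein response and 4 and 3 for antioxidant genes. The same fit gave 1 and 2 for serine and folate metabolism, 0 and 4 for histones, 1 and 0 for Notch and for Hedgehog, 2 and 1 for Hippo, 2 and 2 for DNA methylation and 0 and 2 for the Lin28 axis. Leaving out Hox-/- replicate 1 gave 3 and 1 for integrins, 1 and 6 for DNA replication, 5 and 4 for mitosis, 5 and 3 for antioxidant genes, 0 and 4 for histones, 1 and 1 for Notch, 5 and 5 for DNA methylation and 1 and 3 for the Lin28 axis. Leaving out Hox-/- replicate 2 gave 4 and 2 for integrins, 2 and 2 for laminins, 3 and 1 for tetraspanins, 1 and 4 for the unfolded protein response, 4 and 0 for Notch, 1 and 0 for Hedgehog, 4 and 1 for Hippo, 2 and 1 for retinoic acid, 1 and 1 for Rhox and 3 and 2 for Xlr and Mage.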
